A study of Mus musculus with 8 samples.

Results

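The Nrf2 antioxidant response genes described here are 10 genes picked by symbol out of the 55450 genes of the deposited table, and each symbol matched 1 gene. They are the transcription factor gene Nfe2l2, its repressor Keap1, and the target genes Nqo1, Hmox1, Gclm, Gclc, Slc7a11, Gsr, Txnrd1 and Srxn1. Nfe2l2 encodes Nrf2. In unstressed cells Keap1 binds the Nrf2 protein and delivers it for degradation, and oxidants or electrophiles release it. Nrf2 then enters the nucleus, pairs with small Maf proteins and binds the antioxidant response element near its target genes. Much of this control acts on the Nrf2 protein, which was not measured here. In liver, the targets make and recycle glutathione, reduce thioredoxin, break down haem and quinones, and help hepatocytes and macrophages withstand reactive chemicals, iron and lipid peroxides.

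Liver cells of 8 wild-type C57BL/6 mice were profiled by droplet RNA sequencing of dissociated tissue (10x Genomics 3' libraries), with 1 library per mouse. The 2 control mice received a normal diet. The 3 HFD+F+CCl4 mice received a high-fat diet with fructose solution and injections of carbon tetrachloride (CCl4), a liver toxicant, and the 3 WD+F+CCl4 mice received a western diet with the same fructose solution and CCl4. Both regimens are models of nonalcoholic steatohepatitis (NASH) with fibrosis, so diet, fructose and CCl4 differ from the controls together and their effects cannot be told apart. The question addressed is how the 10 genes differ between the livers of these groups and in which cells.

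In the GRCm38 annotation the 10 genes are protein-coding and lie on 5 chromosomes. Nfe2l2 is at chr2:75675513-75704641 (minus strand), Srxn1 at chr2:152105516-152111376 (plus), Gclm at chr3:122245557-122270732 (plus) and Slc7a11 at chr3:49892526-50443614 (minus). Gsr is at chr8:33652523-33698163 (plus), Hmox1 at chr8:75093621-75100589 (plus) and Nqo1 at chr8:107388225-107403206 (minus). Keap1 is at chr9:21229730-21239361 (minus), Gclc at chr9:77754535-77794485 (plus) and Txnrd1 at chr10:82833951-82897712 (plus). Nfe2l2, Gclm, Txnrd1, Slc7a11 and Gsr overlap another annotated gene on the same strand, where counting could assign or discard shared reads, so their counts are uncertain to that extent.

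Promoters of 7 of the 10 genes were matched in the RefSeq table for GRCm38.p6, which holds 250 bases before and 50 bases after each gene's start. Windows for Hmox1, Gclc and Gsr were not analysed here. The core of the antioxidant response element, TGACNNNGC, was searched on both strands. It was found in 4 of the 9 windows of these 7 genes (44.4%), against 12.4% of all 32851 windows, and in 4 of the 7 genes (57.1%), against 14.0% of all 27025 genes with a window. Binding was not measured, so a match is a description of the letters only. The 4 windows that hold it are shown because they are the element through which these genes are grouped, with the match in capitals and the sequence 5' to 3' on the strand of the gene.
Nfe2l2 (chr2:75704614-75704913, minus strand): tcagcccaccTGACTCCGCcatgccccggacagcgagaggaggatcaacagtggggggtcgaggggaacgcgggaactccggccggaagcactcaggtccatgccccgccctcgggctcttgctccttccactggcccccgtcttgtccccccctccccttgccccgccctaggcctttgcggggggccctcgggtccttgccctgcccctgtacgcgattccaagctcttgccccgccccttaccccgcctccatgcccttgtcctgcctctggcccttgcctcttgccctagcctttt
Gclm (chr3:122245307-122245606, plus strand): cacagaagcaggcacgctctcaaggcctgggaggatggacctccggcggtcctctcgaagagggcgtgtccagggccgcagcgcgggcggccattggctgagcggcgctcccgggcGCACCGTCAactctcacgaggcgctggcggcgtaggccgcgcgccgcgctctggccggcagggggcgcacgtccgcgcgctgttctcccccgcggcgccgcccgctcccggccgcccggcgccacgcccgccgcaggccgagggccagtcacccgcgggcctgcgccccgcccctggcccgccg
Srxn1 (chr2:152105274-152105573, plus strand): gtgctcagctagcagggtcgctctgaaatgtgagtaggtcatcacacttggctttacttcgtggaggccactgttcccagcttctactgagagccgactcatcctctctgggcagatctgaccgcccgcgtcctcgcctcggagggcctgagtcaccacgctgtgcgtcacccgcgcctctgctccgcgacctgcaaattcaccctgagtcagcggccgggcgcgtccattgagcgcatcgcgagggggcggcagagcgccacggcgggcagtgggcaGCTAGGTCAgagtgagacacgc
Txnrd1, the second of its start sites (chr10:82858956-82859255, plus strand): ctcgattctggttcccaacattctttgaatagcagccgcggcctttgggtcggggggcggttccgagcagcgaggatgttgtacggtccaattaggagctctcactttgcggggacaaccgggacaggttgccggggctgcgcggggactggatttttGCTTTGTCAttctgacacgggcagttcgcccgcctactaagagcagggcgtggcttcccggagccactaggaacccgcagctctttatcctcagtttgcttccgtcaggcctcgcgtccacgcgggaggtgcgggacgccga

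After removal of barcodes with 500 genes or fewer or with 25% or more mitochondrial counts, 80474 of 88581 barcodes were kept. Per library, the median kept cell held 992.5 to 4278 unique molecule counts (UMIs), control replicate 2 being the shallowest. Clusters were named from marker genes into 12 cell types, and 3 subtypes were separated within the monocyte-macrophages. Monocyte-macrophages made up 4.14% and 4.82% of the kept cells in the controls and 45.5% to 57.8% in the NASH mice. Clusters without a name held 20.1% and 52.9% of the control cells, most of them in clusters 11 and 12, where markers of hepatocytes and of lymphocytes were found together. They held 1.99% to 6.20% in the NASH mice. Cluster 9, a patrolling monocyte cluster led by heat shock and immediate early genes, came mostly from HFD+F+CCl4 replicate 1, with 2895 of its 3688 cells. WD+F+CCl4 replicate 3 held 707 of them. Of 79739 distinct barcodes, 732 occurred in more than 1 library. The labels do not say whether the mice shared a litter or a cage, and p-values measure the spread between these mice.

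Levels are given as UMIs of the gene per 1000000 UMIs (CPM), summed over the cells of a type in each mouse. Each of the 10 genes had its own order of cell types. Hmox1, which encodes the inducible haem oxygenase, was highest in Kupffer cells, the resident macrophages of the liver, at 980 ± 562 CPM (SD, n = 5 mice with at least 20 such cells). Monocyte-macrophages followed at 350 ± 254 CPM and neutrophils at 236 ± 90.8 CPM. These means pool all mice with enough cells, and the mix of groups differs by cell type, since the 5 mice with Kupffer cells were all NASH mice. Over the NASH mice alone Hmox1 averaged 435 ± 237 CPM in monocyte-macrophages and 261 ± 67.9 CPM in neutrophils. Slc7a11, the cystine importer that supplies cysteine for glutathione, was highest in neutrophils at 415 ± 294 CPM (n = 7), against 26.9 ± 28.6 CPM in monocyte-macrophages (n = 8). Gsr, the reductase that regenerates glutathione with NADPH, was also highest in neutrophils, at 741 ± 271 CPM against 304 ± 64.7 CPM in monocyte-macrophages. Both were higher in neutrophils in 7 of the 7 mice that had both cell types. The same held for Nfe2l2, at 448 ± 163 CPM in neutrophils and 338 ± 128 CPM in monocyte-macrophages.

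**Figure D1:**
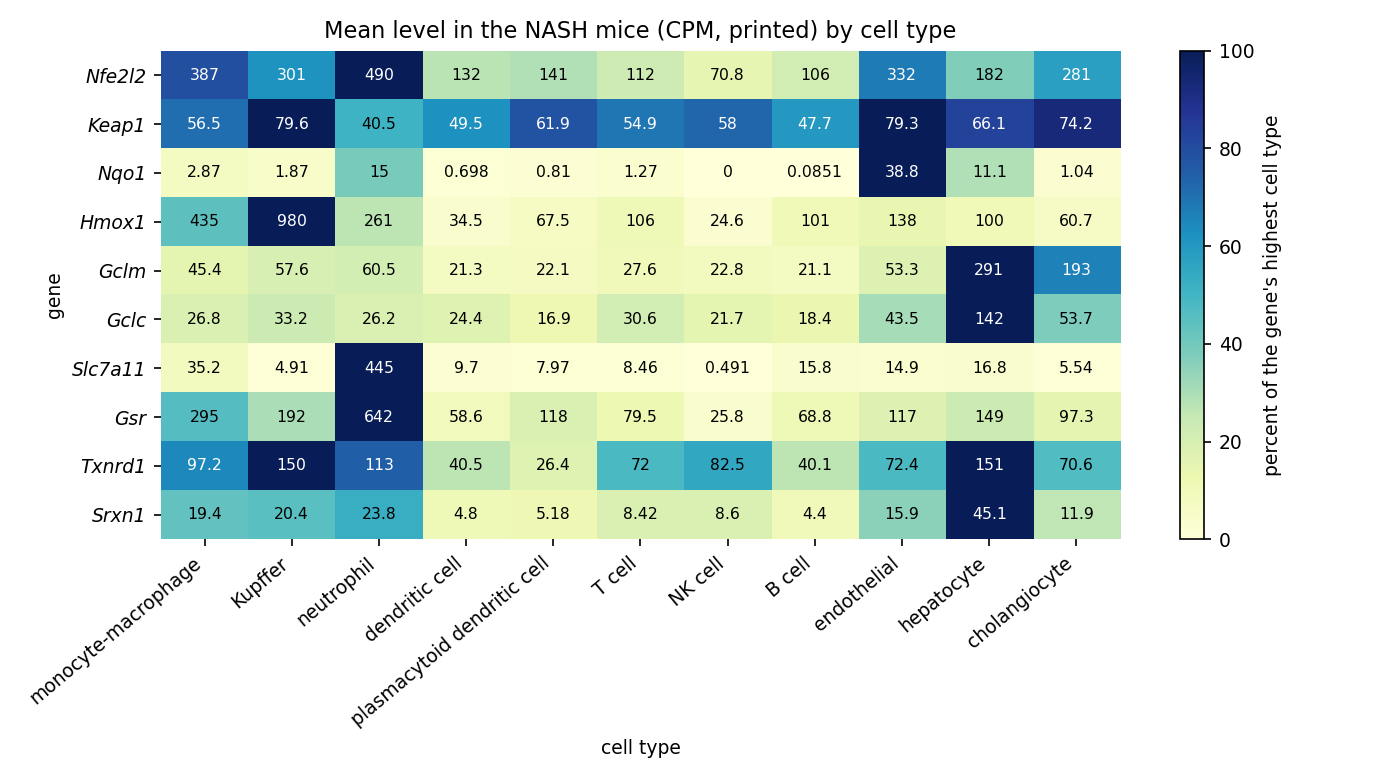
Heat map of the mean level of the 10 genes (rows) in 11 cell types (columns) of the NASH mice. Numbers are CPM, and colour is the percent of the gene's own highest cell type, so colours compare cell types within a gene and not genes. Hepatic stellate cells are left out because 2 mice had enough of them. Slc7a11 and Gsr peak in neutrophils, Hmox1 in Kupffer cells, and Gclm, Gclc and Srxn1 in hepatocytes.

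The glutamate-cysteine ligase genes had their highest levels in the parenchymal and biliary cells, although other cell types also expressed both. Gclm, the modifier subunit of the enzyme that starts glutathione synthesis, averaged 280 ± 60.1 CPM in hepatocytes (n = 7) and 168 ± 54.8 CPM in cholangiocytes (n = 7). Kupffer cells, next in order, had 57.6 ± 24.4 CPM. Gclc, the catalytic subunit, averaged 162 ± 76.2 CPM in hepatocytes, 72.6 ± 36.5 CPM in cholangiocytes and 51.6 ± 17.3 CPM in endothelial cells. Srxn1, the sulfiredoxin that repairs over-oxidised peroxiredoxins, was highest in hepatocytes at 40.2 ± 21.3 CPM. Nqo1, a quinone reductase, was highest in endothelial cells at 31.8 ± 26.2 CPM, where it ranged from 8.72 to 74.4 CPM between mice. The highest value, in WD+F+CCl4 replicate 2, rests on 25 cells and 12 UMIs. HFD+F+CCl4 replicate 1 and WD+F+CCl4 replicate 3, with 1477 and 1424 endothelial cells, were at 10.4 and 8.72 CPM. HFD+F+CCl4 replicate 2, with 207 such cells, was at 49.5 CPM. Txnrd1, the cytosolic thioredoxin reductase, was similar in Kupffer cells (150 ± 54.3 CPM) and hepatocytes (141 ± 31.4 CPM). Keap1 ranged in the NASH mice from a mean of 40.5 CPM in neutrophils to 79.6 CPM in Kupffer cells.

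Neighbours in these orders were compared within mice on log2(CPM + 5) by an exact permutation test that flips the sign of each mouse's difference, two-sided. None of 110 neighbouring pairs passed Benjamini-Hochberg adjustment over the 110 pairs, the lowest adjusted p being 0.344, and 12 had an unadjusted p under 0.05. With 8 mice the smallest possible p is 0.00781, so the orders are descriptions. The cell type with the highest mean stayed first in 12 of 12 alternative settings for 8 of the genes, in 10 for Keap1 and in 9 for Txnrd1. Hepatocytes were few, and the only control with at least 20 of them was replicate 1, with 38.

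Summed over all kept cells, most of the pathway was higher in both NASH models. In HFD+F+CCl4 mice 8 of the 10 genes passed an adjusted p of 0.05 (edgeR quasi-likelihood test, adjusted over 19787 genes), against 18.9% of all genes tested. Of these, 7 were higher (9.63% of all genes) and 1 was lower (9.22%). Of the same genes, 7 of 10 passed in WD+F+CCl4 mice, against 21.4% of all genes. Of these, 6 were higher (11% of all genes) and 1 was lower (10.3%). The median log2 fold change of the 10 genes was 1.90 in HFD+F+CCl4 and 1.58 in WD+F+CCl4, against -0.01 and -0.06 for all genes tested. The models share the same 2 controls, so these counts are not independent. In a sum over all cells, more cells of a type and more RNA of a gene per cell cannot be told apart. Below, NASH mice and controls are said not to overlap for some genes, over all kept cells or within a cell type. The share of all genes that separate from the controls in the same way is not given.

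**Figure D2:**
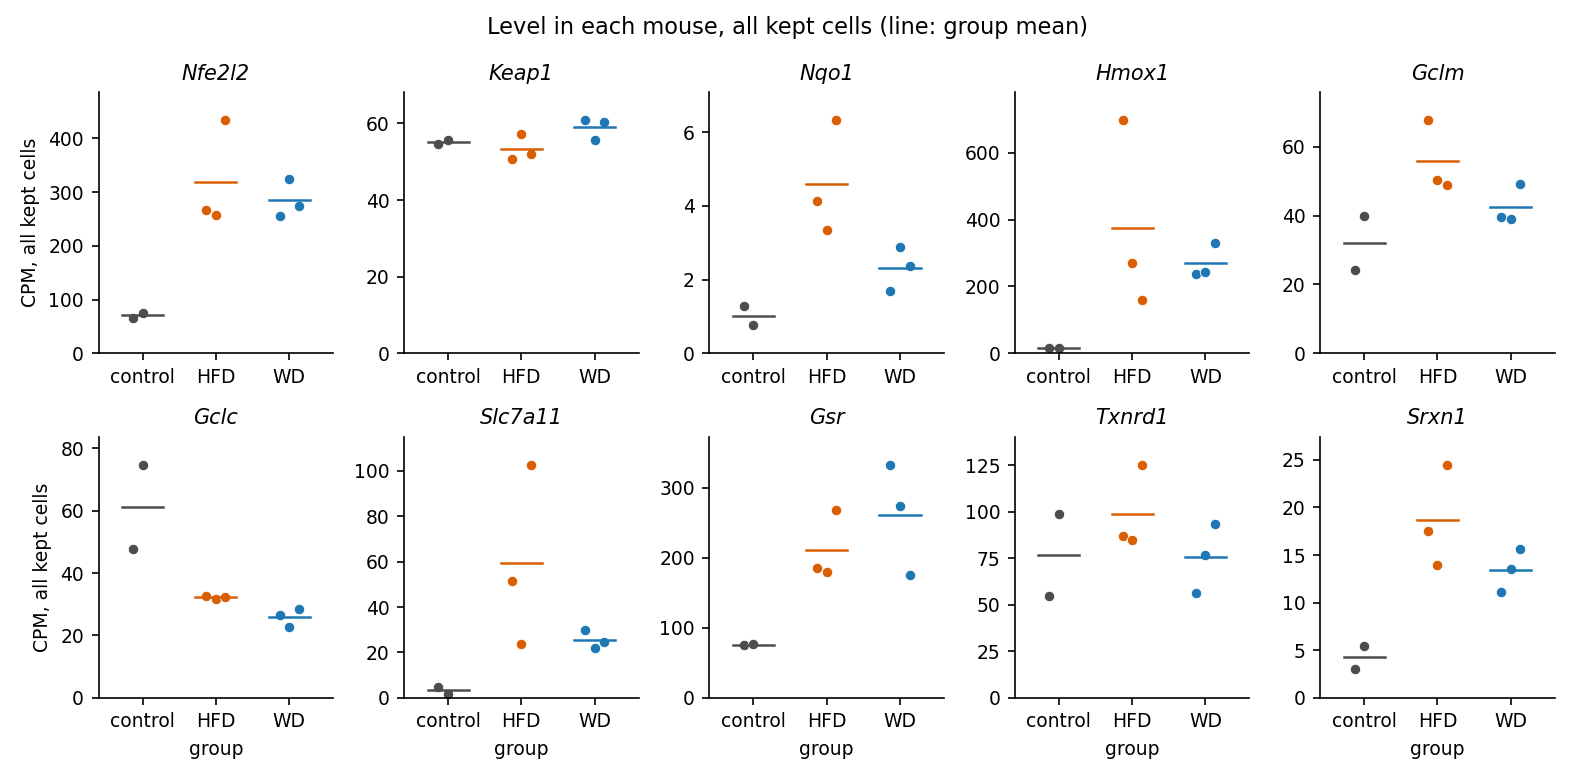
Level of each gene in all kept cells of each mouse (CPM, linear axis from 0), with 1 point per mouse and a line at the group mean. The NASH mice lie above both controls for Nfe2l2, Nqo1, Hmox1, Slc7a11, Gsr and Srxn1 and below both for Gclc, while Txnrd1 overlaps in both models, Keap1 in HFD+F+CCl4 and Gclm in WD+F+CCl4. The share of all genes that separate from the controls in this way is not given, so the separation is a description only.

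Nfe2l2 was at 66.3 and 75.0 CPM in the control mice. It was at 266, 257 and 434 CPM in the HFD+F+CCl4 mice and at 255.8, 325 and 274 CPM in the WD+F+CCl4 mice. The groups did not overlap, and the log2 fold change was 2.32 ± 0.33 (SE; adjusted p = 0.00424, edgeR) in HFD+F+CCl4 and 2.21 ± 0.32 (0.00418) in WD+F+CCl4. Keap1, whose protein holds Nrf2 in check, was at 54.7 and 55.6 CPM in the controls, 50.7, 57.3 and 52.0 CPM in HFD+F+CCl4 and 60.9, 55.7 and 60.5 CPM in WD+F+CCl4. Its log2 fold changes of 0.07 ± 0.15 and 0.29 ± 0.15 did not pass (adjusted p = 0.792 and 0.223, edgeR). Transcripts of the activator and of its repressor therefore had different fold changes, a difference that was not tested itself.

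The haem and quinone enzymes were next. Hmox1 was at 15.7 and 14.5 CPM in the controls. All NASH mice were above both, with 698, 271 and 159 CPM in HFD+F+CCl4 and 236, 243 and 331 CPM in WD+F+CCl4. The log2 fold changes were 4.67 ± 0.60 (adjusted p = 0.00324, edgeR) and 4.33 ± 0.59 (0.00320). Nqo1 was close to the limit of detection, at 1.28 and 0.754 CPM in the controls from 46 and 4 UMIs. It was at 4.13, 3.35 and 6.34 CPM in HFD+F+CCl4 and at 1.68, 2.88 and 2.36 CPM in WD+F+CCl4. The change passed in HFD+F+CCl4 (2.19 ± 0.51, adjusted p = 0.0240, edgeR) and not in WD+F+CCl4 (1.25 ± 0.50, adjusted p = 0.113), and the test between the models did not pass (adjusted p = 1.00). The Nqo1 call was lost without control replicate 1 (adjusted p = 0.0546), without control replicate 2 (0.09999) and without HFD+F+CCl4 replicate 3 (0.0550).

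Glutathione synthesis showed opposite changes in the subunits of 1 enzyme. Gclm was at 24.3 and 39.96 CPM in the controls, 67.8, 50.4 and 49.0 CPM in HFD+F+CCl4 and 39.7, 38.9 and 49.3 CPM in WD+F+CCl4. The rise passed in HFD+F+CCl4 (0.93 ± 0.18, adjusted p = 0.0124, edgeR) and in WD+F+CCl4 (0.63 ± 0.18, 0.0416), although 2 WD+F+CCl4 mice lay just below control replicate 2. Gclc was at 47.8 and 74.8 CPM in the controls, 32.8, 31.7 and 32.4 CPM in HFD+F+CCl4 and 26.4, 22.8 and 28.4 CPM in WD+F+CCl4. It was lower by -0.78 ± 0.16 (adjusted p = 0.0162) and by -1.03 ± 0.16 (0.00543, edgeR), with no overlap between the groups. Summed hepatocyte markers moved the same way, at 3119 and 3547 CPM in all kept cells of the controls against 204 to 1042 CPM in the NASH mice, and their part in the result was not tested beyond the next value. Without clusters 11 and 12 the HFD+F+CCl4 change of Gclc was -0.34 and did not pass (adjusted p = 0.129), and the WD+F+CCl4 call remained. The Gclc call in HFD+F+CCl4 was also lost without control replicate 2 (0.117), HFD+F+CCl4 replicate 1 (0.0501) or HFD+F+CCl4 replicate 2 (0.0539). Gclm depended on the scaling: with library size alone in place of TMM its changes were 0.80 (0.0656) and 0.42 (0.275). The Gclm call was lost without control replicate 1 in HFD+F+CCl4 (0.0555) and WD+F+CCl4 (0.166). It was lost in WD+F+CCl4 as well without HFD+F+CCl4 replicate 2 (0.0696) or 3 (0.0611), or without WD+F+CCl4 replicate 1 (0.0827), 2 (0.0842) or 3 (0.0729).

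Transcripts of the cystine importer and of glutathione reductase were higher over all kept cells. Slc7a11 was at 4.94 and 1.88 CPM in the controls, 51.7, 23.6 and 103 CPM in HFD+F+CCl4 and 29.9, 22.0 and 24.7 CPM in WD+F+CCl4. Its log2 fold changes were 4.10 ± 0.77 (adjusted p = 0.0114, edgeR) and 2.93 ± 0.73 (0.0270). Gsr was at 74.9 and 77.3 CPM in the controls, 185, 180 and 267 CPM in HFD+F+CCl4 and 333, 274 and 175 CPM in WD+F+CCl4, with changes of 1.60 ± 0.36 (0.0212) and 1.98 ± 0.37 (0.00951, edgeR). Every NASH mouse exceeded both controls for the pair of genes. Neutrophils, in which both genes were highest, made up 2.16% and 0.432% of the control cells and 4.79% to 19.5% of the NASH cells, whose part in the result was not tested. The Gsr calls were lost without control replicate 1 (adjusted p = 0.0912 in HFD+F+CCl4 and 0.0569 in WD+F+CCl4) and without control replicate 2 (0.117 and 0.0666), and in HFD+F+CCl4 without cluster 9 (0.0607). The Slc7a11 call was lost without control replicate 2 in HFD+F+CCl4 (0.0645) and WD+F+CCl4 (0.124). It was also lost in WD+F+CCl4 without control replicate 1 (0.0620) or WD+F+CCl4 replicate 1 (0.0587) or 2 (0.0604).

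Of the thioredoxin genes, Srxn1 rose and Txnrd1 did not pass. Srxn1 was at 3.04 and 5.47 CPM in the controls, 17.5, 14.0 and 24.5 CPM in HFD+F+CCl4 and 11.1, 13.5 and 15.6 CPM in WD+F+CCl4, with no overlap. The log2 fold changes were 2.33 ± 0.36 (adjusted p = 0.00570, edgeR) and 1.91 ± 0.35 (0.00900), the latter lost without control replicate 1 (0.0670). Txnrd1 was at 54.7 and 98.8 CPM in the controls and at 56.5 to 125 CPM in the NASH mice, so the groups overlapped. Its changes of 0.54 ± 0.31 and 0.20 ± 0.31 did not pass (adjusted p = 0.259 and 0.691, edgeR). Calls that held in every alternative setting were those of Hmox1 and Nfe2l2 in both models, Srxn1 in HFD+F+CCl4 and Gclc in WD+F+CCl4.

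Where the transcripts lay also differed between the groups. Monocyte-macrophages held 27.3% to 34.9% of the Hmox1 UMIs of each control mouse, 70.9% to 77.2% in HFD+F+CCl4 and 58.3% to 83.5% in WD+F+CCl4. For Nfe2l2 the shares were 12.97% to 13.07% in the controls and 63.4% to 72.8% over the NASH mice. Slc7a11 UMIs lay mainly in neutrophils and monocyte-macrophages, with 42.3% to 46.3% in neutrophils in HFD+F+CCl4 and 31.3% to 69.2% in WD+F+CCl4. These shares follow both the number of cells and the level per cell.

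Within monocyte-macrophages the share of these cells among all cells no longer enters, although the mix of their subtypes still does, and fewer genes passed. In HFD+F+CCl4 mice Hmox1, Gclm, Srxn1 and Slc7a11 were higher, 4 of 10 genes against 6.24% of the 16011 genes tested in these cells. Hmox1, Gclm and Srxn1 were higher in WD+F+CCl4 mice, 3 of 10 against 7.51%. None of the 10 was called lower. The median log2 fold change of the 10 genes was 1.38 and 1.03, against 0.12 for all genes in both comparisons. The control values rest on 447 and 201 cells, and 78.5% and 80.6% of them were classical monocytes, against 4.02% to 36.8% in the NASH mice. Lipid-associated macrophages made up 34.1% to 58.8% of the monocyte-macrophages in the NASH mice and 14.8% and 12.9% in the controls. Slc7a11 averaged 93.1 CPM in the patrolling and 18.4 CPM in the classical monocytes of the NASH mice. Within classical monocytes Gclm overlapped, at 15.5 and 27.8 CPM in the controls and 21.8 to 30.3 CPM in the NASH mice. Hmox1, Srxn1 and Slc7a11 did not overlap there. The part of the subtype mix in these calls was not tested.

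**Figure D3:**
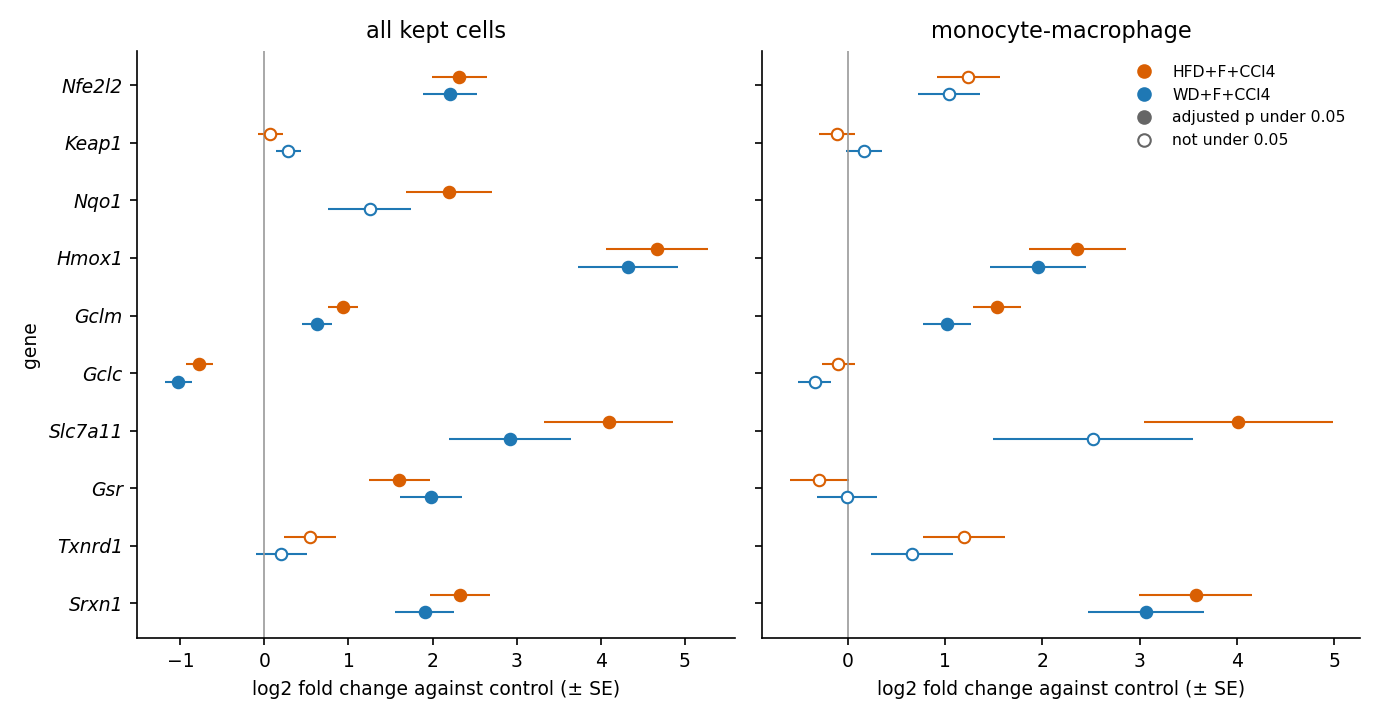
Log2 fold change against control (x axis) of the 10 genes in all kept cells (left) and within monocyte-macrophages (right), for HFD+F+CCl4 (orange) and WD+F+CCl4 (blue). Bars are standard errors, and filled points passed an adjusted p of 0.05. Nqo1 has no point on the right because the controls held no UMI of it. Gsr and Gclc, displaced from 0 on the left, lie near 0 on the right.

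Hmox1 was at 103 and 88.5 CPM in the monocyte-macrophages of the controls, 901, 404 and 228 CPM in HFD+F+CCl4 and 330, 353 and 395 CPM in WD+F+CCl4. All 6 NASH mice were above both controls, and the log2 fold changes were 2.36 ± 0.50 (adjusted p = 0.0279, edgeR) and 1.95 ± 0.49 (0.0452). Gclm was at 16.7 and 25.3 CPM in the controls, 67.7, 48.8 and 46.9 CPM in HFD+F+CCl4 and 31.2, 37.6 and 40.004 CPM in WD+F+CCl4. Its changes were 1.53 ± 0.25 (0.00953) and 1.02 ± 0.25 (0.0391, edgeR). Srxn1 went from 1.57 and 4.21 CPM, which are 3 and 1 UMIs, to 20.9, 17.3 and 31.2 CPM and to 13.5, 17.2 and 16.4 CPM. The fitted changes of 3.57 ± 0.58 (0.00985) and 3.06 ± 0.60 (0.0178, edgeR) rest on those few control UMIs. Slc7a11 had 7 and 0 UMIs in the controls (3.66 and 0 CPM), and 47.3, 22.1 and 87.9 CPM in HFD+F+CCl4, a change of 4.01 ± 0.97 (0.0429). In WD+F+CCl4 it was at 11.96, 20.8 and 21.4 CPM and did not pass (2.52 ± 1.03, adjusted p = 0.164, edgeR). DESeq2 called Slc7a11 higher in both models.

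Other genes of the pathway did not pass in these cells. Nfe2l2 was at 161 and 219 CPM in the controls and above both in all NASH mice, from 298 to 588 CPM, with changes of 1.24 ± 0.32 (adjusted p = 0.0557) and 1.04 ± 0.32 (0.0831, edgeR), while DESeq2 called it higher in both models. Nqo1 had no UMI among 2148247 control UMIs. Taking 3 UMIs over the group as the limit that a count of 0 allows, it was at least 2.55-fold higher in HFD+F+CCl4 and at least 1.56-fold higher in WD+F+CCl4 (adjusted p = 0.0618 and 0.0905). Gsr, higher over all cells, was at 376 and 291 CPM in the controls and 229 to 370 CPM in the NASH mice, with changes of -0.29 ± 0.31 and -0.0047 ± 0.31 (adjusted p = 0.602 and 0.996). Its subtypes differed. In classical monocytes Gsr was at 405 and 294 CPM in the controls and 445 to 536 CPM in the NASH mice, without a call. In lipid-associated macrophages it was at 163 and 330 CPM in the controls and 78.6 to 157 CPM in WD+F+CCl4, while HFD+F+CCl4 overlapped the controls. Gclc was at 31.9 and 29.5 CPM in the controls, 29.4 to 30 CPM in HFD+F+CCl4 and 23.3 to 24.5 CPM in WD+F+CCl4. Txnrd1 varied from 34.5 to 96.9 CPM between the controls alone.

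The monocyte-macrophage calls rest on both controls. Each of them was lost without control replicate 1, where the remaining control is assumed to vary like the other groups. Without control replicate 2 the calls of Gclm and Srxn1 in HFD+F+CCl4 remained, and the others were lost. Leaving out NASH mice ended 3 calls. The Slc7a11 call was lost without replicate 1 of HFD+F+CCl4 (0.0643) and without replicate 2 (0.0622) or 3 (0.0539) of WD+F+CCl4. In WD+F+CCl4, the Hmox1 call was lost without WD+F+CCl4 replicate 1 (0.0712), 2 (0.0893) or 3 (0.0893) or HFD+F+CCl4 replicate 2 (0.0586). The Gclm call was lost there without WD+F+CCl4 replicate 2 (0.0889) or 3 (0.0916) or HFD+F+CCl4 replicate 2 (0.0535). Without cluster 9 the calls of Hmox1, Gclm and Srxn1 in HFD+F+CCl4 and of Srxn1 in WD+F+CCl4 remained, and Slc7a11 in HFD+F+CCl4 (0.0734) and Hmox1 (0.0712) and Gclm (0.0791) in WD+F+CCl4 were lost. With each cell named by its own markers in place of its cluster, Slc7a11 in HFD+F+CCl4 (0.103) and Gclm in WD+F+CCl4 (0.120) were lost. Among cells with over 1000 genes, Hmox1 (0.123) and Slc7a11 (0.128) in HFD+F+CCl4 and Hmox1 (0.171) and Gclm (0.0666) in WD+F+CCl4 were lost.

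Classical monocytes, freshly recruited from blood, were the largest subtype in the controls, with 351 and 162 cells, and Hmox1, Nfe2l2 and Srxn1 were higher there in both models. In a finer clustering (resolution 0.8) the groups' classical monocytes lay in different clusters, cluster 25 holding 340 and 135 control cells and 0 to 3 per NASH mouse, and cluster 2 holding 23 and 23 control cells and 266 to 1961 per NASH mouse. Hmox1 was at 58.7 and 100 CPM in the controls, 286, 214 and 214 CPM in HFD+F+CCl4 and 254, 304 and 300 CPM in WD+F+CCl4. Its changes were 1.78 ± 0.22 (adjusted p = 0.00265, edgeR) and 2.07 ± 0.22 (0.000513). Nfe2l2 was at 145 and 206 CPM in the controls, 380, 401 and 659 CPM in HFD+F+CCl4 and 332, 478 and 380 CPM in WD+F+CCl4, and passed in both models (1.58 ± 0.31, 0.0187, and 1.30 ± 0.30, 0.0244). Srxn1, with 2 and 0 control UMIs, was also called higher in both (2.96 ± 0.67, 0.0320, and 2.83 ± 0.67, 0.0253). Txnrd1 passed in HFD+F+CCl4 only narrowly (1.28 ± 0.34, 0.0498). Of these 7 calls, 5 were lost among cells with over 1000 genes, those of Nfe2l2 (adjusted p = 0.0695 and 0.0800), Srxn1 (0.0712 and 0.0584) and Txnrd1 (0.0690). That makes 4 of 9 genes tested against 5.21% of all genes in HFD+F+CCl4, and 3 of 9 against 8.23% in WD+F+CCl4. Without control replicate 1, Hmox1 in WD+F+CCl4 was the call that remained, and the others had an adjusted p of 0.0741 to 0.614. Without control replicate 2 the calls of Nfe2l2 (0.0699 and 0.0784), Srxn1 (0.0711 and 0.0567) and Txnrd1 (0.0679) were lost. Leaving out WD+F+CCl4 replicate 2 ended those of Nfe2l2 (0.0710) and Srxn1 (0.0598) in WD+F+CCl4 and of Txnrd1 (0.0683). Srxn1 in HFD+F+CCl4 was lost without replicate 3 of that group (0.0825), and DESeq2 called Srxn1 in neither model (adjusted p = 0.0817 and 0.0834). Txnrd1 was lost without HFD+F+CCl4 replicate 2 (0.0827) or 3 (0.120), and without replicate 3 of the WD+F+CCl4 mice (0.0649).

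In lipid-associated macrophages, which take up lipid and express Trem2, the controls held 66 and 26 cells and 0 of the 10 genes passed, against 1.86% and 2.18% of genes in the models. Hmox1 differed widely between those controls, at 353 and 44.1 CPM, and was at 1163, 446 and 249 CPM in HFD+F+CCl4 and 396, 397 and 437 CPM in WD+F+CCl4. Only HFD+F+CCl4 replicate 3 lay below the higher control. Gclm was at 20.8 and 22.0 CPM in the controls, from 6 and 1 UMIs, and at 37.5 to 86.0 CPM in the NASH mice (adjusted p = 0.0691 and 0.237, edgeR). By unadjusted p, 3 of 10 genes were under 0.05 in HFD+F+CCl4 and 1 of 10 in WD+F+CCl4, and DESeq2 called 0 in both.

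Hmox1 was the gene called most often in dendritic cells, plasmacytoid dendritic cells and B cells. In dendritic cells Hmox1 was at 6.37 and 5.84 CPM in the controls, 67.9, 27.9 and 26.8 CPM in HFD+F+CCl4 and 33.1, 31.8 and 19.7 CPM in WD+F+CCl4. It passed in both models (2.64 ± 0.57, adjusted p = 0.0291, and 2.22 ± 0.59, 0.0379, edgeR). Gclc was lower in WD+F+CCl4 dendritic cells, at 30.2, 14.8 and 11.4 CPM against 96.8 and 38.0 CPM in the controls (-1.94 ± 0.45, 0.0221). The counts are 1 of 9 genes against 4.22% of all genes in HFD+F+CCl4 and 2 of 9 against 9.72% in WD+F+CCl4. In plasmacytoid dendritic cells Hmox1 alone of 8 genes tested passed, against 3.58% and 7.83% of all genes. It was at 6.08 and 9.49 CPM in the controls, 104, 38.5 and 33.3 CPM in HFD+F+CCl4 and 126, 63.5 and 39.6 CPM in WD+F+CCl4 (2.50 ± 0.65, 0.0459, and 3.53 ± 0.57, 0.00124). HFD+F+CCl4 replicate 1 held 20 such cells and 7 Hmox1 UMIs.

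B cells had 1 of 8 genes called in HFD+F+CCl4, against 5.56% of all genes, and 4 of 8 in WD+F+CCl4, against 10.8%. In the finer clustering most control B cells lay in cluster 12 (2218 and 140, with 0 to 21 per NASH mouse) and most NASH B cells in cluster 10 (27 to 1459 per mouse, with 69 and 48 control cells). Hmox1 was at 7.78 and 8.05 CPM in the B cells of the controls, 343, 51.1 and 21.9 CPM in HFD+F+CCl4 and 87.3, 50.2 and 51.1 CPM in WD+F+CCl4 (4.33 ± 0.82, adjusted p = 0.00590, and 3.15 ± 0.78, 0.0177, edgeR). The value of 343 CPM, from HFD+F+CCl4 replicate 1, was the highest of the 8 mice. In WD+F+CCl4, Gsr was at 122, 100 and 47.8 CPM against 18.1 and 24.1 CPM (2.37 ± 0.37, 0.000745), Nfe2l2 was higher (1.32 ± 0.33, 0.0180) and Gclc was lower (-0.92 ± 0.27, 0.0421).

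Transcripts of monocyte-macrophage markers were also counted in the other cell types, and their sum moved with the groups. Summed monocyte-macrophage markers in B cells, which should lack them, were 602 to 1601 CPM in the controls, 1920 to 2972 CPM in HFD+F+CCl4 and 2989 to 4163 CPM in WD+F+CCl4. In monocyte-macrophages themselves the same sum was 31736 to 32021 CPM in the controls and 11957 to 16335 CPM in the NASH mice. Hmox1 UMIs per 1000 of these marker UMIs were 5.03 to 12.9 in control B cells, 11.4 to 115 in HFD+F+CCl4 and 16.2 to 21.0 in WD+F+CCl4. In monocyte-macrophages the ratios were 2.76 to 3.23, 15.8 to 75.3 and 20.2 to 27.97. The corresponding ranges in dendritic cells were 2.06 to 2.67, 11.3 to 29.5 and 9.37 to 9.71. Whether dendritic cells make some of these markers themselves was not tested, so their ratio cannot be read as RNA from other cells. Neutrophil markers summed to 558 to 683 CPM in control B cells, 154 to 1219 CPM in HFD+F+CCl4 and 453 to 1945 CPM in WD+F+CCl4. Removal of doublets by rank ended the B cell calls of Hmox1 (adjusted p = 0.164), Gsr (0.181), Nfe2l2 (0.353) and Gclc (0.105) in WD+F+CCl4, both Hmox1 calls in dendritic cells (0.0763 and 0.110) and both in plasmacytoid dendritic cells (0.282 and 0.0943). It did not end the Hmox1 call in HFD+F+CCl4 B cells. With DESeq2 the WD+F+CCl4 calls of Hmox1 (adjusted p = 0.0674) and Gclc (0.260) in B cells were lost. With each cell named by its own markers, Gsr (0.202), Hmox1 (0.0742) and Nfe2l2 (0.175) in WD+F+CCl4 B cells and both Hmox1 calls in dendritic cells (0.0943 and 0.162) were lost. Among cells with over 1000 genes, Gclc in WD+F+CCl4 B cells (0.0989), Hmox1 in WD+F+CCl4 dendritic cells (0.0612) and Hmox1 in HFD+F+CCl4 plasmacytoid dendritic cells (0.162) were lost. The part of free RNA and of doublets in these results was not tested further. All 10 calls in these 3 cell types were lost without control replicate 1, with an adjusted p of 0.0683 to 0.603. In B cells of WD+F+CCl4 mice, Gclc was also lost without control replicate 2 (0.0589) or without WD+F+CCl4 replicate 1 (0.119), 2 (0.139) or 3 (0.0869). Nfe2l2 was lost there without control replicate 2 (0.0604) or WD+F+CCl4 replicate 1 (0.0596) or 2 (0.0838), and Hmox1 without WD+F+CCl4 replicate 1 (0.0553). In dendritic cells both Hmox1 calls were lost without control replicate 2 (0.122 and 0.123), and in WD+F+CCl4 also without its replicate 1 (0.0865) or 2 (0.0905), while Gclc was lost without WD+F+CCl4 replicate 2 (0.0835). In plasmacytoid dendritic cells Hmox1 in HFD+F+CCl4 was lost without control replicate 2 (0.0965) or any of the HFD+F+CCl4 mice (0.0917, 0.148 and 0.115), and without replicate 2 of WD+F+CCl4 (0.0519).

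No gene of the 10 passed in T cells (0 of 9 tested in each model, against 0.727% and 1.78% of all genes), NK cells (0 of 4, against 1.67% and 5.24%), endothelial cells (0 of 10, against 1.58% and 1.37%) or cholangiocytes (0 of 8, against 0.468% and 0.612%) by edgeR. In T cells 2 of 9 and 4 of 9 genes had an unadjusted p under 0.05, in NK cells 0 of 4 in each model, in endothelial cells 4 of 10 in each and in cholangiocytes 2 of 8 and 3 of 8. DESeq2 called Hmox1 higher in the T cells and in the endothelial cells of HFD+F+CCl4 mice, and none of the 10 in the other 6 of these 8 comparisons. Hmox1 was at 24.1 and 23.5 CPM in control endothelial cells and at 55.3 to 286 CPM in the NASH mice with at least 20 such cells. Its change there was 2.84 ± 0.65 in HFD+F+CCl4 and 2.15 ± 0.69 in WD+F+CCl4 (adjusted p = 0.0645 and 0.202, edgeR). Hmox1 in T cells was at 10.2 and 0 CPM in the controls, from 6 and 0 UMIs, and at 36.5 to 262 CPM in the NASH mice. In cholangiocytes it was at 6.51 and 0 CPM, from 2 and 0 UMIs, against 7.61 to 125 CPM in the NASH mice with at least 20 such cells. In endothelial cells, T cells and cholangiocytes these NASH mice were thus all above both controls, although the T cells and cholangiocytes of control replicate 2 were too shallow for a count of 0 to place it below each of them. The NK cell name is uncertain, as T cell markers scored 1.63 in that cluster against 2.25 for NK cell markers. In NK cells Hmox1 had 1 to 10 UMIs per NASH mouse and was not tested.

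**Figure D4:**
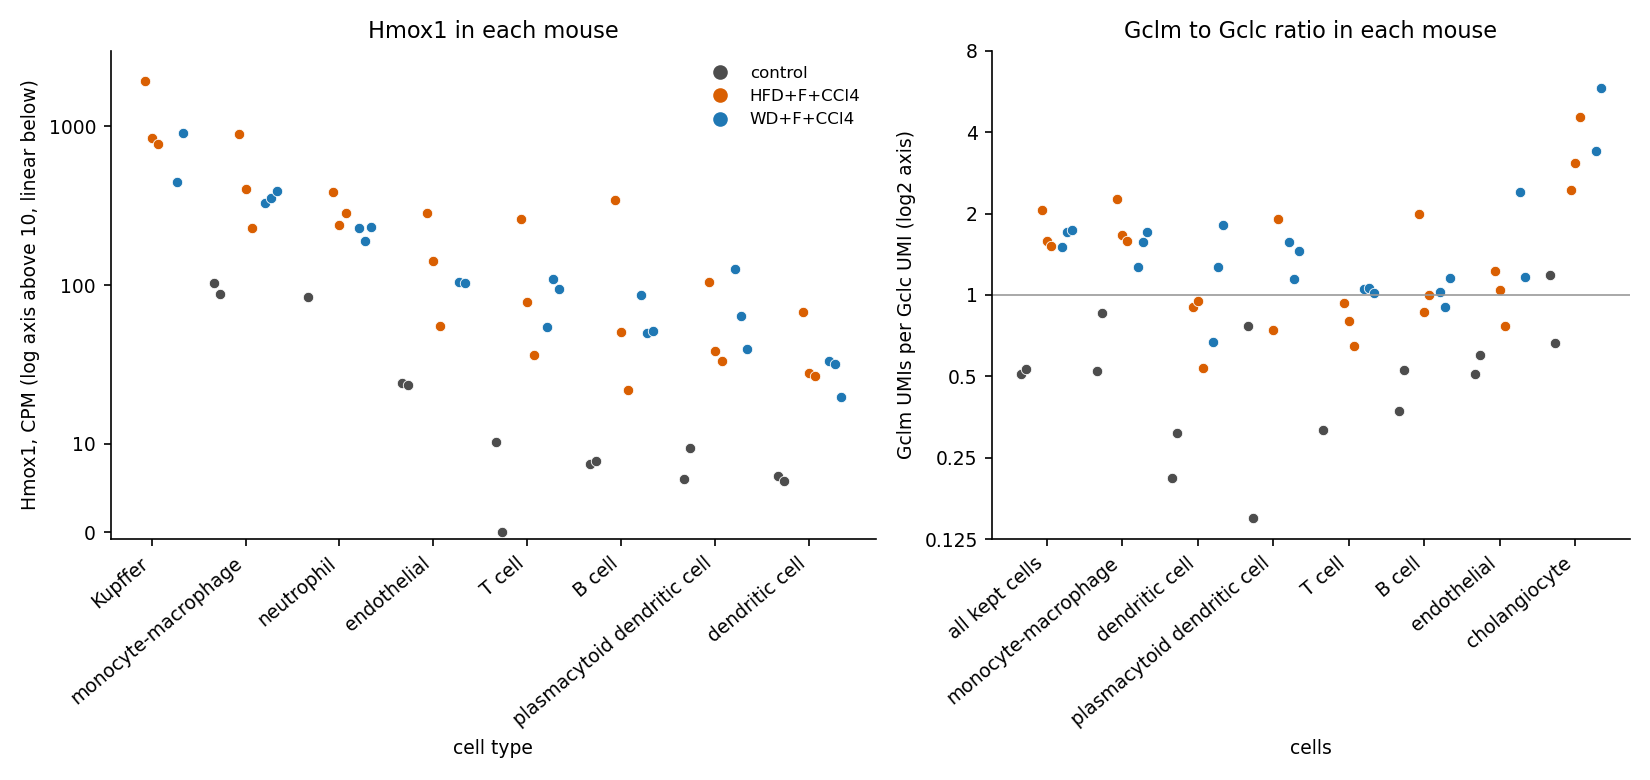
Left, Hmox1 in each mouse by cell type (CPM; log axis above 10, linear below), with 1 point per mouse that had at least 20 cells of the type. Right, UMIs of Gclm per UMI of Gclc in each mouse on a log2 axis, with a line at 1. NK cells, in which the groups overlap for Hmox1 and for the ratio, are plotted in neither panel. The left panel shows 8 cell types. The NASH points lie above the control points in the 7 of these types that have any (Kupffer cells have none, neutrophils 1), and in 7 of the 8 sets on the right. The T cell point at 0 is control replicate 2, whose depth allows up to 40.2 CPM.

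The opposite changes of Gclm and Gclc led to a comparison of their ratio in each mouse, a choice made after the values were seen. Over all kept cells the controls had 0.508 and 0.534 UMIs of Gclm per UMI of Gclc, and the 6 NASH mice had 1.501 to 2.07. In monocyte-macrophages the ratio was 0.525 and 0.857 in the controls and 1.27 to 2.26 in the NASH mice. Dendritic cells went from 0.211 and 0.308 to 0.536 to 1.81, B cells from 0.372 and 0.529 to 0.862 to 2.00, and cholangiocytes from 0.667 and 1.18 to 2.45 to 5.82. NASH mice and controls did not overlap in 7 of the 8 sets of cells compared, plasmacytoid dendritic cells being the exception. NK cells were not among these sets. There the controls held 304 and 42 UMIs of Gclm and 635 and 69 of Gclc. WD+F+CCl4 replicate 1, with 4 and 10 NK cell UMIs of the genes, lay below both controls. The other NASH mice with enough NK cells lay above both, on at most 5 UMIs of either gene. By an exact two-sided permutation test of NASH mice against controls p was 0.0357 in all kept cells, monocyte-macrophages, dendritic cells and B cells, the smallest that 6 mice against 2 allow, and 0.0635 after adjustment over the 8 sets. Either model alone cannot go below 0.1. The sets share the same controls and all kept cells contain the others, so they are not independent. Because the ratio was chosen from these same values, its p-values are descriptions. In endothelial cells and cholangiocytes, with 5 NASH mice each, p was 0.0476, again the smallest possible. Within cell types, control replicate 2 held 3 to 9 Gclm UMIs in the sets other than T cells, where it held none. The ratio of HFD+F+CCl4 replicate 3 in B cells rests on 1 UMI of each gene. Hepatocyte markers were higher in the controls in dendritic cells (1002 to 1043 CPM against 23.2 to 404 CPM) and B cells (1923 to 2745 CPM against 27.7 to 755 CPM). Their part in the ratio was not tested, and in hepatocytes themselves the ratio could be read in 1 control only, where Gclm was at 211 CPM and Gclc at 285 CPM.

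Between the 2 models none of the 10 genes passed adjustment. Over all kept cells 0 of the 10 passed when one model was set against the other, where 0% of all genes passed by edgeR. At an unadjusted p under 0.05 there were also 0 of 10, against 3.88% of genes, and DESeq2 called 47 genes with none of the 10 among them. Differences ranged from -1.17 ± 0.56 on the log2 scale for Slc7a11 to 0.37 ± 0.30 for Gsr. Within the 8 fitted cell types together 0.0546% of genes passed, and none was of the 10. In monocyte-macrophages every WD+F+CCl4 mouse lay below every HFD+F+CCl4 mouse for Gclm, Gclc, Txnrd1, Srxn1 and Slc7a11, and above for Keap1. The share of all genes that separate in this way is not given here. Classical monocytes made up 4.02% to 15.3% of these cells in HFD+F+CCl4 and 18.8% to 36.8% in WD+F+CCl4, whose part was not tested. Within classical monocytes the models overlapped for Gclm, Txnrd1, Srxn1 and Slc7a11, and not for Gclc and Keap1. In lipid-associated macrophages they overlapped for Srxn1, Slc7a11 and Keap1. In the monocyte-macrophage sum Gclm (-0.51 ± 0.15) and Slc7a11 (-1.49 ± 0.46) had an unadjusted p of 0.00853 and 0.00911 (adjusted p = 0.566 for each, edgeR), 2 of 10 genes against 6.75% of all genes. The same genes were under 0.05 in lipid-associated macrophages (-0.75 ± 0.19 and -2.87 ± 0.79, unadjusted p = 0.00286 and 0.00474, adjusted p = 0.669 for each), 2 of 10 against 6.61%. DESeq2 called none of the 10 in any fitted cell type. With no filter beyond 1 count, 4 pairs of gene and cell type passed, against 0.709% of all genes. They were Slc7a11, lower in WD+F+CCl4 monocyte-macrophages (adjusted p = 0.0125, edgeR) and dendritic cells (0.0107), and Hmox1, lower in B cells (0.00229) and higher in plasmacytoid dendritic cells (0.0372).

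Neutrophils could not be compared with controls, because control replicate 2 held 18 of them, but the NASH mice alone could be compared. Nqo1 was at 24.0, 12.9 and 40.5 CPM in the neutrophils of HFD+F+CCl4 mice and at 2.15, 5.03 and 5.52 CPM in those of WD+F+CCl4 mice. Gclm was at 70.4, 59.1 and 121 CPM against 36.0, 40.2 and 36.2 CPM, and Txnrd1 at 156, 103 and 219 CPM against 54.8, 72.0 and 71.7 CPM. Gclc was at 37.9, 28.6 and 41.0 CPM against 22.0, 10.1 and 17.3 CPM. For these 4 genes, and for Hmox1 (385, 241 and 285 CPM against 231, 191 and 232 CPM), the models did not overlap, while Srxn1 overlapped (36.4, 14.3 and 55.3 CPM against 9.97, 10.1 and 16.5 CPM). The share of all genes whose models do not overlap in neutrophils is not given here, so the separation is a description only. The 5 differences on the log2 scale were -2.87 ± 0.58, -1.14 ± 0.31, -1.24 ± 0.32, -1.06 ± 0.29 and -1.63 ± 0.50 for Nqo1, Gclm, Txnrd1, Gclc and Srxn1. Their unadjusted p was 0.000769 to 0.00952, so that 5 of the 10 genes were under 0.05 against 4.87% of the 9952 genes tested. None passed adjustment (adjusted p = 0.899 for each, edgeR), and this fit was added after the values were seen. Control replicate 1, with 233 neutrophils, had 2.43 CPM of Nqo1, 26.7 CPM of Gclm and 63.1 CPM of Txnrd1.

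**Figure D5:**
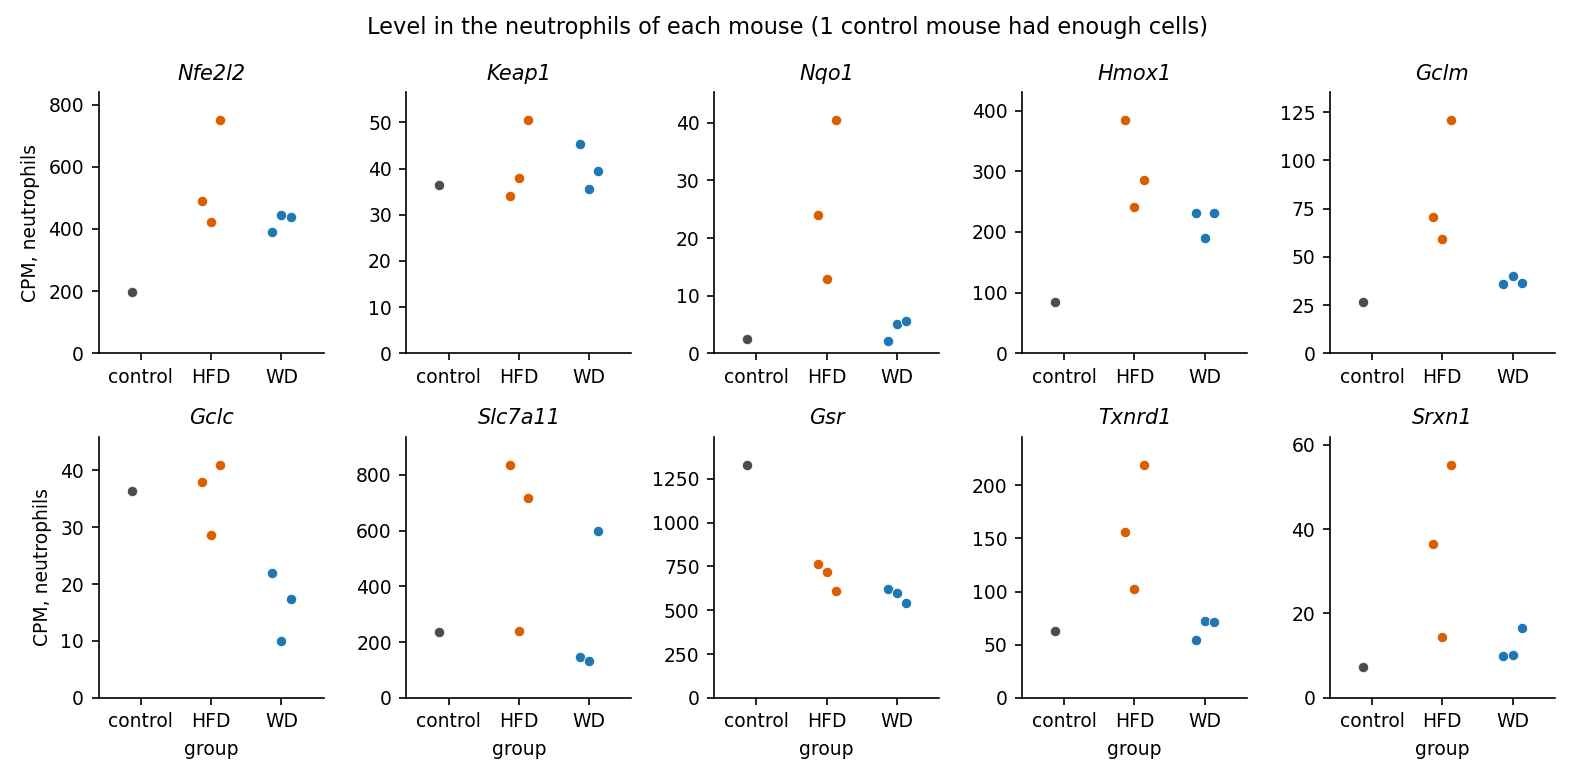
Level of each gene in the neutrophils of each mouse (CPM, linear axis from 0), with 1 point per mouse. Control replicate 2, with 18 neutrophils, is left out. The models do not overlap for Nqo1, Hmox1, Gclm, Gclc and Txnrd1, and the share of all genes that separate in this way is not given.

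Slc7a11 in neutrophils was at 837, 238 and 716 CPM in HFD+F+CCl4 and at 146, 132 and 598 CPM in WD+F+CCl4, so the models overlapped, and the control was at 235 CPM. Gsr went the other way from the sum over all cells. It was at 1332 CPM in the neutrophils of control replicate 1 and at 541 to 766 CPM in the 6 NASH mice, a comparison with 1 control and no test. Nfe2l2 was at 196 CPM in that control and at 391 to 750 CPM in the NASH mice. In Kupffer cells, of which the controls held 6 and 0, Hmox1 was at 1932, 841 and 772 CPM in HFD+F+CCl4 and at 444 and 911 CPM in 2 WD+F+CCl4 mice. In patrolling monocytes, which crawl along vessel walls, Slc7a11 was at 92.1 to 113 CPM in HFD+F+CCl4 and 72.2 to 88.4 CPM in WD+F+CCl4. It was higher there than in the classical monocytes of each NASH mouse, where it ranged from 6.72 to 34.7 CPM.

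The wider pathway was described by 63 other genes in 6 lists. Over all kept cells 62 were tested. In HFD+F+CCl4 29 passed (46.8%, against 18.9% of all genes), 25 higher and 4 lower, and in WD+F+CCl4 28 passed (45.2%, against 21.4%), 25 higher and 3 lower. Of the 6 genes that supply NADPH, which both Gsr and Txnrd1 consume, 5 were higher in each model, and of the 11 genes of detoxification and haem or iron handling 6 were higher in each. Of 9 partners and regulators of Nrf2, 4 were higher and 1 was lower in each model. Of 21 genes of glutathione synthesis and use, 6 were higher and 3 lower in HFD+F+CCl4, and 6 were higher and 2 lower in WD+F+CCl4. Fewer passed among the 11 thioredoxin and peroxiredoxin genes (3 and 4, all higher) and the 4 genes of superoxide and peroxide removal (1 higher and 0). Within monocyte-macrophages 9 of 60 passed in HFD+F+CCl4 (15.0%, against 6.24% of all genes), 8 of them higher, and 10 of 60 in WD+F+CCl4 (16.7%, against 7.51%), 9 of them higher. Detoxification and haem or iron handling gave 4 and 5 of these. There 0 of the 6 NADPH genes passed in either model. The median log2 fold change of all lists fell from 0.72 and 0.69 over all kept cells to 0.18 and 0.24 within monocyte-macrophages, where that of all genes was 0.12 in both.

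Several partners of the 10 genes stood out by size among these lists. Slc3a2, the heavy chain that carries Slc7a11 to the membrane, was at 44.0 and 42.1 CPM in control monocyte-macrophages and at 121 to 190 CPM in the NASH mice (1.87 ± 0.27, adjusted p = 0.00640, and 2.04 ± 0.27, 0.00587, edgeR). Fth1, the ferritin heavy chain that stores the iron that haem oxygenase frees, was called higher in HFD+F+CCl4 (2.01 ± 0.33, 0.0102). It was at 2243 and 2095 CPM in the controls, 7027 to 10776 CPM in HFD+F+CCl4 and 5049 to 6368 CPM in WD+F+CCl4. Sqstm1, whose protein p62 can bind Keap1, was called higher in WD+F+CCl4 (1.59 ± 0.26, 0.0102). It was at 61.7 and 54.8 CPM in the controls, 164 to 238 CPM in HFD+F+CCl4 and 150 to 215 CPM in WD+F+CCl4. At most 2 genes per direction were named in a comparison, so naming in 1 model marks no difference between the models. Mgst1, a microsomal glutathione transferase abundant in hepatocytes, was lower in both, at 386 and 341 CPM in the controls and 88.8 to 133 CPM in the NASH mice (-1.92 ± 0.19, 0.00237, and -1.61 ± 0.19, 0.00435). Hepatocyte markers in these cells summed to 1044 to 1184 CPM in the controls and 29.0 to 527 CPM in the NASH mice. Classical monocytes made up 78.5% and 80.6% of these cells in the controls and 4.02% to 36.8% in the NASH mice. The part of hepatocyte RNA or of the subtype mix in the changes of Mgst1, Slc3a2, Fth1 and Sqstm1 was not tested. The HFD+F+CCl4 call of Mgst1 passed in every alternative (adjusted p of at most 0.0441). The others were lost without control replicate 1, and over the alternatives their adjusted p reached 0.0662 for Mgst1, 0.0770 and 0.0960 for Slc3a2, 0.0875 for Sqstm1 and 0.0909 for Fth1. The Fth1 and Sqstm1 calls were lost without control replicate 2 as well.

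Over all kept cells the named genes of the lists were Gpx3, Gsta1, Mgst2 and Gstp2. Gpx3, a secreted glutathione peroxidase, went from 1.14 and 1.13 CPM in the controls to 8.89 to 54.9 CPM in the NASH mice (4.79 ± 0.78, adjusted p = 0.00710, and 4.86 ± 0.78, 0.00584, edgeR). Mgst2 was lower, at 28.8 and 35.1 CPM in the controls and 2.40 to 7.87 CPM in the NASH mice (-2.46 ± 0.50, 0.0150, and -2.45 ± 0.50, 0.0134). The Gpx3 calls were lost without control replicate 1 (adjusted p = 0.0574 and 0.0519), and those of Mgst2 without either control, with an adjusted p of up to 0.0680 and 0.0625 over the alternatives. Gsta1, higher, and Gstp2, lower, passed in both models at levels of at most 2.52 and 1.32 CPM. The calls of both genes were lost without control replicate 1 and also without control replicate 2. Over 18 alternatives, Gsta1 was lost in 6 in HFD+F+CCl4 and 2 in WD+F+CCl4, and Gstp2 in 10 and 9.

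Genes whose pattern over 82 combinations of mouse and cell type was most like each of the 10 were taken by Pearson's r on log2(CPM + 5), among 7285 genes with a mean of at least 20 CPM. These points share libraries and depth, so r is a description. Hmox1 was most like Adgre1 (0.934), the macrophage surface gene that encodes F4/80, followed by Trem2 (0.901) and Fcgr3 (0.896). Gsr was most like Msrb1 (0.914), a methionine sulfoxide reductase, and Slc7a11 most like Clec4d (0.890) and Cxcl2 (0.865). Nfe2l2 was most like Cd14 (0.850). Gclm was most like Gstm1 (0.851), a glutathione transferase, and Gclc most like Gstz1 (0.806). Srxn1 was most like Tpi1 (0.745) and Sod2 (0.725), the mitochondrial superoxide dismutase. The highest values for Nqo1 (Lrg1, 0.734), Txnrd1 (Ikbke, 0.677) and Keap1 (Cnih1, 0.660) were lower.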

How the data were processed

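Livers of 8 wild-type mice were dissociated and sequenced as 10x Genomics 3' libraries, 1 per mouse. The authors deposited whole-number UMI counts per gene and cell barcode on GRCm38, made with Cell Ranger (4.0.0 in the matrix header) after bcl2fastq 2.20 as the submitters' processing notes name it. Groups and replicate numbers were taken from the sample labels. No column belonged to another series. Library totals ran from 6135827 to 64855024 UMIs, and intervals and floors (3 UMIs) cover counting error only.

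Kept barcodes, which had over 500 genes and a mitochondrial share below 25%, were clustered in scanpy 1.11.5 (2000 variable genes, 30 principal components, 20 neighbours, Leiden resolution 0.42 with leidenalg 0.10.2). Clusters were named from fixed marker lists, and the resolution and naming rules were settled after the data were seen. Doublets were removed by rank as an alternative only. Counts were summed per mouse and cell type, sets with under 20 cells were left out, and the sums were fitted with edgeR 4.0.16 in R 4.3.3 (TMM, filterByExpr with a minimum count of 10, quasi-likelihood test, all groups in 1 fit). Adjusted p is Benjamini-Hochberg over all genes of a fit, with a threshold of 0.05. The test scripts were run first on simulated counts. Orders of cell types were tested by exact sign-flip permutation over mice on log2(CPM + 5).

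All 10 genes were named. Other pathway genes were named where they had the 2 largest changes per direction among those called in a comparison, and likeness by the 3 highest correlations. The genes and lists were chosen with earlier results of these data known. Alternatives were DESeq2 1.42.0, other scaling, filters and clusterings, doublet removal, leaving out each mouse, and a replicate block.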

Additional observations from a re-analysis of the deposited data

Results flagged for a closer look

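Nqo1 averaged lower in the NASH mice than in the controls in NK cells, and higher in monocyte-macrophages. Its mean over the NASH mice minus that of the controls was -0.596 CPM in NK cells, where the 5 NASH mice with enough cells held no Nqo1 UMI and the controls held 7 and 1. In monocyte-macrophages the difference was 2.87 CPM, with no UMI in the controls. These 5 NASH mice held 33 to 86 NK cells and the controls 4220 and 831, and the difference between the cell types was not tested. At the depth of these NASH mice a count of 0 allows up to 9.06 to 31.2 CPM. The controls were at 0.444 and 0.749 CPM, so the counts of 0 cannot place the NASH mice below them. The name of this cluster is uncertain. Its T cell marker score was 1.63 against 2.25 for NK cell markers, and at resolution 0.8 a cluster with 3321 and 810 control cells, scored close to equally by both marker lists, was left unnamed, while the NK cell cluster there held 257 and 17 control cells and 91 to 224 per NASH mouse.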

How the results depend on the processing

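Over all kept cells, 8 of the 10 genes passed in HFD+F+CCl4, and leaving out a mouse gave 4 to 8. In WD+F+CCl4 7 passed, and leaving out a mouse gave 3 to 7. Over the 8 cell types, 7 pairs of gene and cell type passed in HFD+F+CCl4, and 0 to 9 without 1 mouse. With DESeq2 there were 11, with each cell named by its own markers 11, with no filter beyond 1 count 24, and with over 1000 genes per cell 4. In WD+F+CCl4 10 pairs passed, and 0 to 11 without 1 mouse, with 23 under no filter beyond 1 count, 6 with over 1000 genes per cell and 4 without doublets. Between the models 0 pairs passed, and 4 with no filter beyond 1 count. Naming each cell by its own markers ended 7 of the 17 calls within cell types, and over 1000 genes per cell ended 7 of these and 5 of the 7 in subtypes. Library size alone ended 3 and 1, and fitting only the 2 groups compared ended 3 and 2. The cause of these shifts was not tested. No result reversed its direction. No neighbouring cell types passed in any setting of the order.

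Same-numbered mice did not deviate together (7 pairs, r from -0.591 to 0.0693, against -0.485 to 0.599 for 14 pairs of different numbers), so the numbers were taken as names. With the number as a replicate block, 4 genes passed over all kept cells in HFD+F+CCl4 and 5 in WD+F+CCl4, and 9 and 8 pairs within cell types.

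With 2 controls, of which replicate 2 was the shallowest library, each control value decides many calls. Without control replicate 1, 7 of 15 calls over all kept cells and all 17 within cell types were lost. Without control replicate 2, 6 and 10 were lost. Without doublets 8 of the 17 were lost, and clusters 9, 11 and 12 were left out as alternatives chosen after seeing the data.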
